A study of Mus musculus with 15 samples.

Results

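Mouse epiblast-like cells (EpiLCs), a culture form of the early post-implantation epiblast, were compared in 2 states of ERK signalling: 2 h after its induction (2h, 4 libraries) and after it had been induced for 4 h and MEK had then been inhibited for 2 h (rev, 4 libraries). All columns starting EpiLC_2h and EpiLC_rev in the deposited table were taken, which is 8 of the 15 libraries of the series, and all genes were tested with the clone as a covariate. The cells were of the line CRAFR26, in which a c-RAF kinase construct is switched on by 4-hydroxytamoxifen (4OHT). Embryonic stem cells were taken through RSC culture for 2 passages and then to EpiLCs for 48 h in N2B27 medium with bFGF at 12 ng/ml, Activin A at 20 ng/ml and the tankyrase inhibitor XAV939 at 1 µM. Every group, the controls included, was first held for 2 h in the FGF receptor inhibitor PD17 (PD173074) at 250 nM. The 2h group then received 4OHT at 250 nM for 2 h, and the rev group 4OHT for 4 h followed by a MEK inhibitor (MEKi, not named further in the labels) for 2 h. The 0h group (3 libraries, PD17 alone) and the 4h group (4 libraries, 4OHT for 4 h) serve below only as reference levels; 0h has 1 clone 4 and 2 clone 8 libraries and 4h has 2 of each, so that means of these groups pool clones whose levels differ for several genes. Each of the 8 libraries came from clone 4 or clone 8 of the line, with 2 libraries per clone in each group, so that 2 clones stand behind every value. The labels do not say that libraries of a clone came from separate cultures, and the p-values measure only the spread between these libraries. The 2 groups differ in the time since 4OHT, in how long ERK was induced and in the MEK inhibitor, and these cannot be told apart here.

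The RAF, MEK and ERK kinases form a cascade in which RAF phosphorylates MEK and MEK phosphorylates ERK. Active ERK phosphorylates transcription factors such as Elk1, and a first wave of immediate early genes (Fos, Egr1, Ier2) follows without new protein synthesis, together with genes that dampen the pathway: the dual specificity phosphatases Dusp4, Dusp5 and Dusp6, the Sprouty and Spred proteins, and the Nab corepressors of Egr factors. In the epiblast, FGF signalling through ERK takes cells out of naive pluripotency. A MEK inhibitor blocks the step that activates ERK.

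Total RNA, 1 µg per sample, was sequenced after depletion of ribosomal RNA. The 8 libraries held 8667880 to 12752651 counts each. Of these, 2310615 to 6237654 lay outside the 20 most abundant genes and the mitochondrial genes, and 3 counts corresponded to 0.161 to 0.422 CPM. CPM was taken over the summed counts of the tested genes in a library, after TMM scaling of the libraries. The 4h libraries, used as a reference level, were shallower, at 1552022 to 6658950 counts. Mitochondrial genes took 5.20% ± 1.36 of counts in rev and 4.76% ± 2.06 at 2h (SD, n = 4; exact two-sided permutation test, p = 0.8), and the 20 most abundant genes took 66.8% ± 5.44 and 62.4% ± 7.91 (p = 0.457; adjusted over the 2 measures, both 0.8; the smallest p this design allows is 0.0286). The library 2h clone8_2 stood apart from the other 2h libraries, its counts differing from theirs with a chi-square of 189 to 269 for each degree of freedom, where the other pairs gave 12.9 to 42.5. Genes annotated as rRNA took 12.8% of its counts, against 29.6% to 34.5% in the other 2h libraries and 23.7% to 38.7% in rev; the part of this in the results was not tested. On a principal component analysis of the 8 libraries, the first component (33.1% of the variance) separated the clones and the second (26.0%) separated the groups, from 4.45 to 24.9 at 2h and from -23.5 to -9.86 in rev. The EpiLC markers Fgf5, Otx2, Pou3f1, Dnmt3b, Pou5f1 and Sox2 summed to 1066 to 1296 CPM at 2h and to 933 to 1048 CPM in rev, and the naive markers Zfp42, Esrrb, Tfcp2l1, Klf4, Dppa3 and Tbx3 to 18.1 to 26.0 and 18.3 to 29.8 CPM. In bulk samples of this kind, fewer cells of a type and less RNA per cell cannot be told apart.

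Between 2h and rev, the immediate early factors Fos, Junb and Egr1, the mRNA decay factor Zfp36, the ERK phosphatase Dusp6 and the feedback inhibitor Spry4 fell most among the genes named by rule, by 6.45-fold to 15.4-fold. A set of p53 target genes fell with them. The genes that rose were counted with fewer reads, and the 15 named by rule, among them Meis1, Kcna1 and Irx5, rose by 2.87-fold to 4.36-fold. Of 12479 genes tested with edgeR's quasi-likelihood test, 507 were called at a Benjamini-Hochberg adjusted p under 0.05, which is 4.06% of those tested. In rev, 207 of them were lower (1.66%) and 300 were higher (2.4%). At least 2-fold changes were called for 63 lower (0.505%) and 126 higher genes (1.01%). All 4 rev libraries lay below all 4 2h libraries for 385 genes (3.09%) and above them for 496 (3.97%), called or not. The median log2 fold change of all tested genes was -0.014. Below, a value after ± is the SD over the 4 libraries of a group (n = 4), and SE belongs to the log2 fold change. Scaling by total count moved that median to -0.13 and the calls to 70 lower and 63 higher, so that 47.4% of calls were higher in place of 59.2%. Without the library 2h clone8_2 there were 482 calls, 187 lower and 295 higher.

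**Figure D1:**
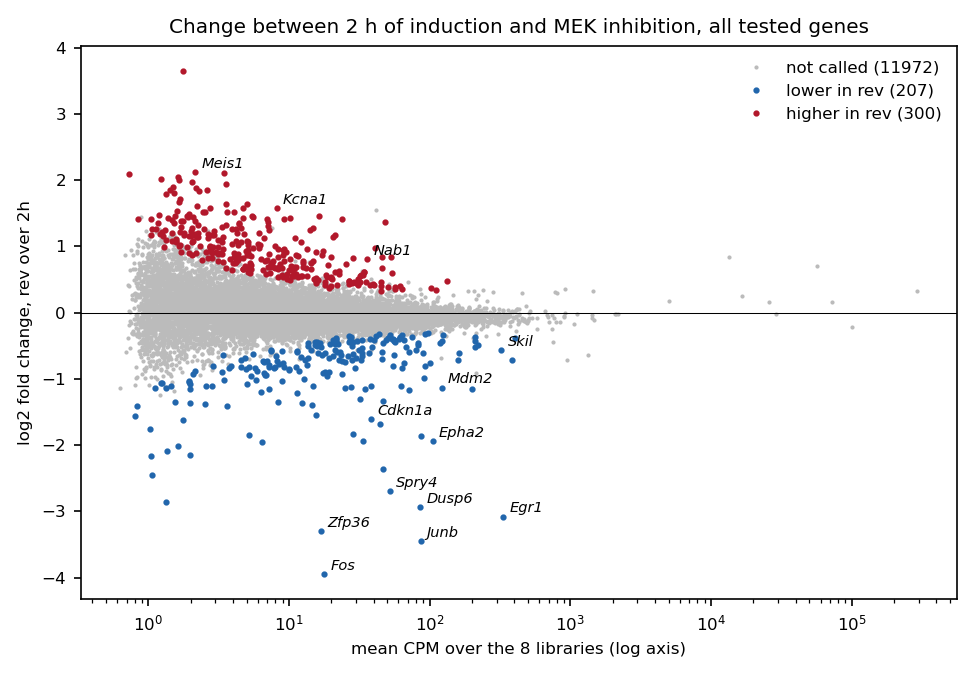
Log2 fold change of rev over 2h (vertical axis) against the mean CPM over the 8 libraries (horizontal axis, logarithmic) for the 12479 tested genes. Blue points mark the 207 genes called lower in rev and red points the 300 called higher; the named falls from Fos to Epha2 lie at means of 16.8 CPM and above.

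Most transcription factors of the immediate early list fell. Of 22 tested members, 14 were lower in rev and none was higher, with a median log2 fold change of -0.90 over the 22 members. The lower share was 63.6%, beside 1.66% of all tested genes. Leaving out single libraries gave 12 to 14 lower members, and 14 without 2h clone8_2; a model with no clone term gave 3. Fos, a subunit of the AP-1 factor (chr12:85473890-85477273, plus strand, GRCm38), was counted at 40.2 and 48.1 CPM in clone 4 and 22.1 and 23 CPM in clone 8 at 2h. In rev, Fos had 2.65 and 1.62 CPM in clone 4 and 1.97 and 2.26 CPM in clone 8. No rev library came near the lowest 2h library, and the fall was 15.4-fold (log2 fold change -3.95, SE 0.18, adjusted p = 1.31e-08). At 4h, without the MEK inhibitor, Fos was at 4.94 and 4.74 CPM in clone 4 and 0.909 and 1.14 CPM in clone 8. Junb, another AP-1 subunit, had 285 and 206 CPM in clone 4 and 51.9 and 89.8 CPM in clone 8 at 2h. In rev, Junb had 25 and 18.4 CPM in clone 4 and 8.58 and 5.24 CPM in clone 8 (log2 fold change -3.45, SE 0.20, adjusted p = 4.45e-07). Both clones fell, from a higher 2h level in clone 4 than in clone 8. At 4h, Junb was at 38.9 and 38.9 CPM in clone 4 and 4.32 and 2.28 CPM in clone 8. Junb lies antisense to Prdx2, and the handling of strand in the counts is not given in the sources used here.

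Egr1, a zinc finger factor induced by serum and growth factors, was counted at 733 and 902 CPM in clone 4 and 398 and 353 CPM in clone 8 at 2h. In rev, Egr1 had 98.9 and 94.7 CPM in clone 4 and 45 and 43.7 CPM in clone 8. The groups did not overlap (log2 fold change -3.08, SE 0.09, adjusted p = 8.54e-11). At 0h, Egr1 was at 0.991 CPM in clone 4 and 1.69 and 3.29 CPM in clone 8, and at 4h at 182 and 222 CPM in clone 4 and 31.1 and 45.9 CPM in clone 8. Egr3, from the same family, had 139 and 145 CPM in clone 4 and 57.4 and 49.6 CPM in clone 8 at 2h. In rev, Egr3 had 62.7 and 73.3 CPM in clone 4 and 22.8 and 21.2 CPM in clone 8. It fell in each clone, but its groups overlapped because the clone 4 libraries in rev were above the clone 8 libraries at 2h (log2 fold change -1.16, SE 0.09, adjusted p = 4.23e-06). The log2 ratio of Egr1 to Egr3 was 2.66 ± 0.192 at 2h and 0.753 ± 0.304 in rev (SD, n = 4), a pair chosen after its values were seen and therefore given without a test.

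The remaining factors that fell were Fosb (-2.45), Csrnp1 (-1.83), Egr4 (-1.41), Myc (-1.31), Fosl1 (-1.03), Atf3 (-1.02), Klf10 (-0.98), Egr2 (-0.82), Mafk (-0.81) and Jun (-0.79), given as log2 fold changes. Myc, the growth-promoting bHLH factor, is an example of a moderate fall, with 45.4 ± 14.7 CPM at 2h and 18.2 ± 4.61 CPM in rev. At 0h, Myc was at 1.65 CPM in clone 4 and 2.57 and 3.17 CPM in clone 8, and at 4h at 92.1 and 99.2 CPM in clone 4 and 12.5 and 19 CPM in clone 8. Fosb stayed close to the detection floor in rev, with 1.02 to 2.89 CPM at 2h and 0 to 0.562 CPM in rev, and its calls were lost without 2h clone4_2 or rev clone4_1 (adjusted p 0.0679 to 0.0872). Egr2 was not called without 2h clone4_2, rev clone8_1 or rev clone8_2 (adjusted p 0.0548 to 0.0663), nor Mafk without any one of 4 libraries (2h clone4_1, rev clone4_1, rev clone4_2, rev clone8_1; 0.0588 to 0.116). Fosl2, an AP-1 subunit of the same list, was not called, at 0.33 (95% interval -0.04 to 0.71, adjusted p = 0.413); its libraries read 3.1 to 10.4 CPM at 2h and 6.06 to 10.9 CPM in rev.

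Among the 26 other tested immediate early genes, 17 were lower in rev and 1 was higher, with a median of -0.71. The shares were 65.4% and 3.85%, beside 1.66% and 2.4% of all tested genes. Leaving out single libraries gave 13 to 17 lower members, and 17 without 2h clone8_2. Total count scaling gave 10, and a model with no clone term 6. Zfp36 encodes tristetraprolin, which binds AU-rich mRNAs and speeds their decay. It had 38.1 and 45.8 CPM in clone 4 and 20.3 and 18.2 CPM in clone 8 at 2h. In rev, Zfp36 had 2.58 and 3.66 CPM in clone 4 and 2.39 and 3.59 CPM in clone 8 (log2 fold change -3.30, SE 0.21, adjusted p = 3.46e-07). Its rev mean of 3.05 CPM stood beside 2.83 CPM in the uninduced 0h libraries and 3.76 CPM at 4h, where no MEK inhibitor was given. The nuclear protein gene Ier2 fell from 136 to 36.8 CPM (log2 fold change -1.86, SE 0.21, adjusted p = 0.000649). Its means were 44.5 CPM at 0h and 50.5 CPM at 4h. Ier3 (-1.76), Ier5 (-1.35) and Ier5l (-0.89), the cytoskeleton-associated gene Arc (-1.33), the antiproliferative genes Btg2 (-1.14) and Btg1 (-0.61), the kinases Pim3 (-1.11), Pim1 (-0.91) and Sgk1 (-0.66) and the pseudokinase Trib1 (-0.92) fell by less. Gadd45a (-0.88), Ccn2 (-0.72), Zfp36l2 (-0.71), Tiparp (-0.70) and the survival gene Mcl1 (-0.51) completed the members that fell. The calls of Ccn2 (5 libraries), Btg1 (2), Ier3 (1) and Zfp36l2 (1) were lost when single libraries were left out, at adjusted p of 0.0547 to 0.115.

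The 2 Nab genes, which encode corepressors of Egr factors, were not among those that fell. Nab1 was the 1 member that rose, with 32.5 and 36.2 CPM in clone 4 and 20.5 and 16.3 CPM in clone 8 at 2h. In rev, Nab1 had 50.2 and 60.8 CPM in clone 4 and 34.2 and 35.9 CPM in clone 8 (log2 fold change 0.81, SE 0.11, adjusted p = 0.000569). The groups overlapped across clones, and in each clone both rev libraries were above both 2h libraries. Nab2 was not called, with 113 and 79.7 CPM in clone 4 and 32.6 and 41.9 CPM in clone 8 at 2h. In rev, Nab2 had 104 and 79 CPM in clone 4 and 53.4 and 46 CPM in clone 8. Its change was 0.16 (95% interval -0.15 to 0.46, adjusted p = 0.684). At 0h, Nab2 was at 0.606 CPM in clone 4 and 0.811 and 0.731 CPM in clone 8, and at 4h at 76 and 85.3 CPM in clone 4 and 12 and 14.4 CPM in clone 8. All of its 2h and rev libraries were above those of 0h. The GTPase gene Rrad was likewise not called, with 39.4 ± 23.7 CPM at 2h and 34.3 ± 17.9 CPM in rev at a log2 fold change of -0.17 (95% interval -0.45 to 0.10, adjusted p = 0.598). Nab2, Rrad and Egr3 had a higher 2h level in clone 4 than in clone 8 in every library, as Egr1 did.

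**Figure D2:**
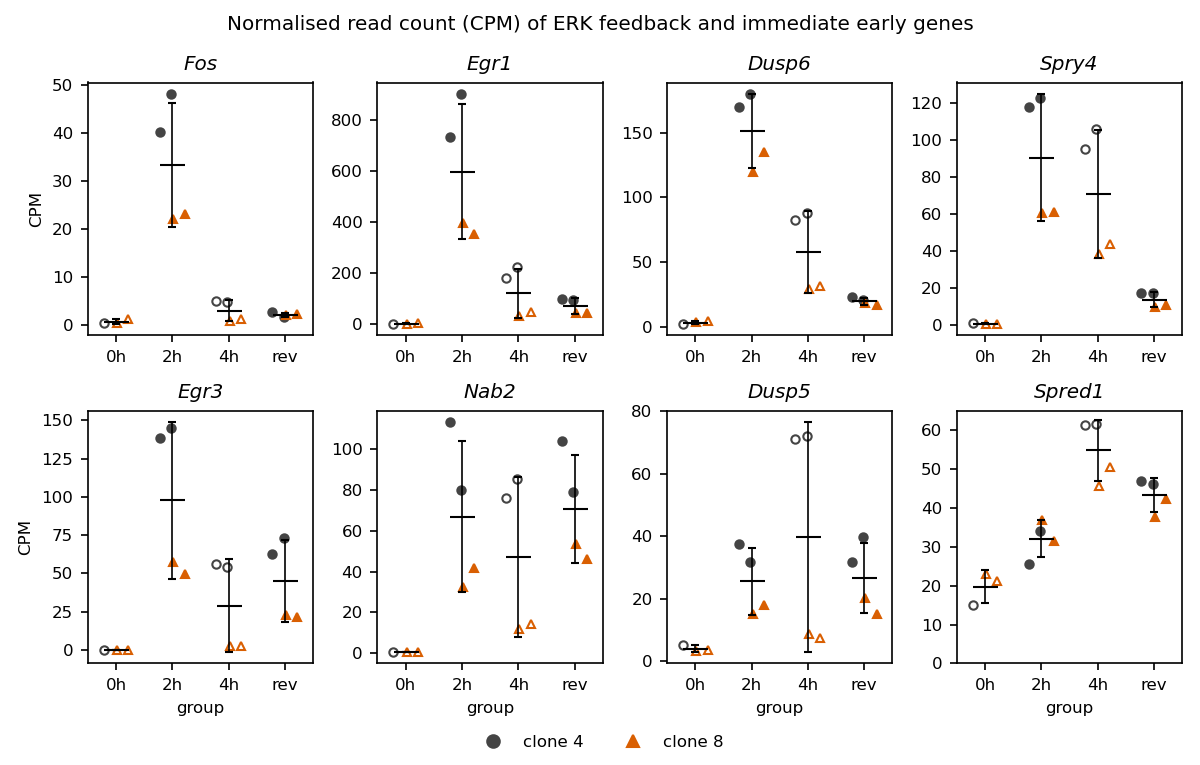
CPM per library (vertical axes, linear) in the 4 groups (horizontal axes) for 8 genes; circles are clone 4, triangles clone 8, open symbols the reference groups 0h and 4h, and the bar with whiskers the mean ± SD (n = 4, 3 at 0h). Fos, Egr1, Dusp6 and Spry4 in rev lie below all 2h libraries, Egr3 falls within each clone, and Nab2, Dusp5 and Spred1 were not called.

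Promoter sequence was read for the members that fell, from RefSeq windows (GRCm38.p6), using only the 250 bases before each start. Of the 46 protein-coding genes called at least 2-fold lower, 32 had a window. Matches on both strands were counted for 5 motifs: the CArG box bound by SRF, the cAMP response element TGACGTCA, the ETS site CCGGAAGT, the AP-1 site TGANTCA and the TATA box TATAAA, of which the CArG box can hold the TATA box within it. A CArG box was found in 1 of the 32 genes (3.12%), against 1.37% of the 9122 tested protein-coding genes with a window, and in 2 of the 21 immediate early genes with a window that fell (9.52%), Zfp36 and Egr2. A gene with more windows has more sequence in which to hold a match: these 21 genes had 1.62 windows on average and the 32 genes 1.16, against 1.29 for all tested genes. The cAMP response element was found in 5 of the 32 (15.6%), against 3.23% of the tested genes; they were Btg2, Dusp1, Epha2, Foxd3 and Plk2. Of the 32 genes, the ETS site was in 1 (3.12%, against 7.14%), the AP-1 site in 2 (6.25%, against 4.98%) and the TATA box in 4 (12.5%, against 7.31%). For the 86 genes with a window that rose at least 2-fold, the TATA box was in 17.4% and the AP-1 site in 6.98%. In these 86 genes the cAMP response element was in 5.81%, the CArG box in 2.33% and the ETS site in 1.16%. Among the 21 immediate early genes, the TATA box was in 14.3%, the cAMP response element and the AP-1 site in 4.76% each, and the ETS site in 0%. Over all 32851 windows of the table, the shares were 1.47% for the CArG box, 1.55% for the cAMP response element, 2.88% for the ETS site, 6.75% for the AP-1 site and 12.4% for the TATA box. The bases next to the start are shown for both CArG-bearing genes and for 2 of the genes with a cAMP response element, with the motif in capitals, 5′ to 3′ on the gene's strand. The motif's first base lies 58 bases before the start in Zfp36, 72 in Egr2, 143 in Dusp1 and 33 in Epha2. Egr2 had 3 further CArG matches in its other windows, 72, 73 and 133 bases before their starts, and 1 of its windows is shown. Those matches have the same letters, and windows of a gene can overlap, so they may be the same site seen from different starts. Fos had a window, with a TATA box 33 bases before the start and no CArG match within the 250 bases. A gene without a match may hold the motif farther from the start or with other letters, or may have had no window. A match is a description of the letters only.
Zfp36 (chr7:28379229-28379308, minus strand): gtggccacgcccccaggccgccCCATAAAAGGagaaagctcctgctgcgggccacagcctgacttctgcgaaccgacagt
Egr2 (chr10:67537416-67537565, plus strand): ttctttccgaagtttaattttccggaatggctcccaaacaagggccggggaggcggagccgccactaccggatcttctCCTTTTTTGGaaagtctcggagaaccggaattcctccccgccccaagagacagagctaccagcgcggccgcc
Dusp1 (chr17:26508473-26508632, minus strand): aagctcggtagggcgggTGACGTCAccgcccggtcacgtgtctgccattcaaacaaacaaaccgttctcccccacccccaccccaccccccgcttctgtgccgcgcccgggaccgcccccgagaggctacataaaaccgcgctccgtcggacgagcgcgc
Epha2 (chr4:141301141-141301220, plus strand): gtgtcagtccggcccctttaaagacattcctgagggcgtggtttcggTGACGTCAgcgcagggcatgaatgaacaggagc

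Of the 10 tested MAP kinase phosphatases, 3 were lower in rev (30%, beside 1.66% of all tested genes) and none was higher, and the median was -0.15. The lower members numbered 3 in each fit that left out a library. Dusp6, which dephosphorylates ERK in the cytoplasm (chr10:99263231-99267489, plus strand, GRCm38), had 169.9 and 179.8 CPM in clone 4 and 119.7 and 135 CPM in clone 8 at 2h. In rev, Dusp6 had 22.9 and 20.7 CPM in clone 4 and 18.4 and 16.7 CPM in clone 8. The groups were far apart (log2 fold change -2.94, SE 0.09, adjusted p = 8.54e-11). At 0h, Dusp6 was at 2.31 CPM in clone 4 and 3.58 and 4.26 CPM in clone 8, and at 4h at 82.8 and 87.7 CPM in clone 4 and 29.1 and 31.9 CPM in clone 8. In each clone, the rev level lay between those of 0h and 4h. Dusp1, a nuclear phosphatase of the stress kinases and ERK whose promoter is printed above, had 119 and 116 CPM in clone 4 and 32.3 and 48.9 CPM in clone 8 at 2h. In rev, Dusp1 had 13.9 and 16.7 CPM in clone 4 and 12.2 and 13.7 CPM in clone 8 (log2 fold change -2.36, SE 0.25, adjusted p = 0.000649). Its rev mean was 14.1 CPM beside 13.1 CPM at 0h and 14 CPM at 4h. Dusp2, the third to fall, had 18.9 and 12.9 CPM in clone 4 and 3.19 and 6.12 CPM in clone 8 at 2h. In rev, Dusp2 had 4.95 and 2.34 CPM in clone 4 and 1.69 and 1.23 CPM in clone 8; its groups overlapped across clones (log2 fold change -1.96, SE 0.27, adjusted p = 0.000649).

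The nuclear ERK phosphatases Dusp4 and Dusp5, also known as ERK-induced genes, were not called. Dusp5 had 37.5 and 31.7 CPM in clone 4 and 15 and 17.8 CPM in clone 8 at 2h. In rev, Dusp5 had 31.9 and 39.8 CPM in clone 4 and 20.1 and 14.9 CPM in clone 8, a log2 fold change of 0.06 (95% interval -0.20 to 0.32, adjusted p = 0.878). Dusp4 had 20.2 ± 2.44 CPM at 2h and 28.4 ± 9.19 CPM in rev, a log2 fold change of 0.45 (95% interval 0.16 to 0.74, adjusted p = 0.0861). It was called higher with no filter beyond 1 count (0.43, adjusted p = 0.0107) and without 2h clone8_2 (0.58, adjusted p = 0.0116). Both were above their 0h means of 3.9 and 11.6 CPM in rev, as they had been at 2h. The log2 ratio of Dusp6 to Dusp5 was 2.62 ± 0.371 at 2h and -0.339 ± 0.469 in rev, and that of Dusp6 to Dusp4 was 2.86 ± 0.172 and -0.473 ± 0.281 (SD, n = 4). Both pairs were chosen after their values were seen, each setting a called fall beside an uncalled gene. The ratios therefore restate these changes and are given without a test.

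Among 14 tested Sprouty, Spred and other feedback inhibitors, Spry4 and Spry2 were lower in rev and none was higher, and the list median was 0.06. The lower share was 14.3%, beside 1.66% of all tested genes. Spry4, an inhibitor of receptor tyrosine kinase signalling upstream of RAF, had 118 and 123 CPM in clone 4 and 61 and 61.1 CPM in clone 8 at 2h. In rev, Spry4 had 17.3 and 17.7 CPM in clone 4 and 9.7 and 10.8 CPM in clone 8 (log2 fold change -2.69, SE 0.09, adjusted p = 2.18e-10). Spry2 had 59.5 and 60.5 CPM in clone 4 and 48.2 and 44.9 CPM in clone 8 at 2h. In rev, Spry2 had 14.4 and 12.4 CPM in clone 4 and 13.9 and 14.7 CPM in clone 8 (log2 fold change -1.93, SE 0.11, adjusted p = 1.33e-07). For both genes every rev library lay below every 2h library, and both stayed above their 0h means of 0.867 and 7.44 CPM. Their 4h means were 70.9 and 46.3 CPM. Spry1 was not called, with 3.33 to 5.7 CPM at 2h and 3.23 to 5.85 CPM in rev and a log2 fold change of 0.28 (95% interval -0.16 to 0.72, adjusted p = 0.591). Spred1, which holds back RAF activation by RAS, was at 25.6 and 33.9 CPM in clone 4 and 36.9 and 31.4 CPM in clone 8 at 2h. In rev, Spred1 had 46.9 and 46.1 CPM in clone 4 and 37.5 and 42.3 CPM in clone 8. All of its rev libraries were above its 2h libraries, and its adjusted p missed the threshold: the log2 fold change was 0.43 (95% interval 0.19 to 0.68, adjusted p = 0.0522). It was called higher under 5 alternatives, at a log2 fold change of 0.42 to 0.53: with no filter beyond 1 count (adjusted p = 0.00455), without the 20 most abundant and mitochondrial genes (0.0496), with the replicate block (0.0379), without 2h clone8_1 (0.0110) and with DESeq2 (0.0354). Spred2 was not called either, at 0.14 (95% interval -0.08 to 0.35, adjusted p = 0.594). The log2 ratio of Spry4 to Spred1 was 1.42 ± 0.701 at 2h and -1.65 ± 0.304 in rev, a pair chosen after its values were seen.

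None of the 20 core cascade genes tested, among them the Ras and Map2k genes, Elk1 and Srf, was called, with changes between -0.32 and 0.41 and a median of -0.06. With no filter beyond 1 count, with the replicate block and without 2h clone8_1, 1 of them was called higher. The oestrogen receptor gene Esr1 was not called, at -0.20 (95% interval -0.48 to 0.07, adjusted p = 0.517). The construct itself was not analysed here as a separate row. Of the 12 genes of the ERK output list, 4 were lower (33.3%, beside 1.66% of all tested genes) and none was higher, with a median of -0.26. Epha2, an ephrin receptor kinase on epithelial and embryonic cells, had 211 and 185 CPM in clone 4 and 126 and 146 CPM in clone 8 at 2h. In rev, Epha2 had 51.4 and 42.5 CPM in clone 4 and 38.5 and 39.3 CPM in clone 8 (log2 fold change -1.94, SE 0.10, adjusted p = 3.29e-08). Its groups did not overlap, and in rev it remained above 14.2 CPM at 0h. Its 4h mean was 111 CPM. Myc, Ier3 and Fosl1, counted above, were the other three. The ETS factors Etv4 and Etv5 and the G1 cyclin Ccnd1 were not called, at -0.22 (95% interval -0.45 to 0.02, adjusted p = 0.379), -0.07 (95% interval -0.25 to 0.11, adjusted p = 0.786) and -0.14 (95% interval -0.37 to 0.09, adjusted p = 0.597). Of the 16 tested delayed targets, Epha2 was lower and Anxa1 and Hmga2 were higher. The shares were 6.25% and 12.5%, beside 1.66% and 2.4% of all tested genes. Anxa1, a calcium-dependent phospholipid-binding protein, was near the detection floor at 2h, with 0.114 to 0.431 CPM at 2h and 0.976 to 1.32 CPM in rev (log2 fold change 2.09, SE 0.37, adjusted p = 0.00488). Hmga2, an architectural chromatin protein, had 4.13 ± 1.65 CPM at 2h and 8.2 ± 3.67 CPM in rev (log2 fold change 0.98, SE 0.18, adjusted p = 0.0061).

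Most genes of the p53 response list fell. Of its 15 tested members, 12 were lower in rev (80%, beside 1.66% of all tested genes), none was higher, and the median was -0.71. Leaving out single libraries gave 7 to 11 lower members, with 11 without 2h clone8_2 and 7 without rev clone8_2. Total count scaling gave 6, and a model with no clone term 5. Btg2 is also in the immediate early list and Sesn2 in the stress list. Cdkn1a, which encodes the cell cycle inhibitor p21, had 68.2 and 72.5 CPM in clone 4 and 41.2 and 49.4 CPM in clone 8 at 2h. In rev, Cdkn1a had 17.7 and 15 CPM in clone 4 and 23.8 and 18.7 CPM in clone 8 (log2 fold change -1.61, SE 0.17, adjusted p = 8.06e-05). All rev libraries were below all 2h libraries, and the rev mean of 18.8 CPM was also below the means of 40.2 CPM at 0h and 26.2 CPM at 4h. Mdm2, the ubiquitin ligase that degrades p53, had 149 and 152 CPM in clone 4 and 172 and 194 CPM in clone 8 at 2h. In rev, Mdm2 had 71.2 and 56.4 CPM in clone 4 and 91.1 and 88.7 CPM in clone 8 (log2 fold change -1.13, SE 0.09, adjusted p = 5.09e-06). At 0h, Mdm2 was at 80.1 CPM in clone 4 and 168 and 164 CPM in clone 8, and at 4h at 66.1 and 68.8 CPM in clone 4 and 100.4 and 88.1 CPM in clone 8. Pmaip1 (Noxa, a proapoptotic BH3-only protein) fell from 48 ± 2.67 to 21.6 ± 1.74 CPM (log2 fold change -1.15, SE 0.09, adjusted p = 4.14e-06), and its 0h mean was 20.9 CPM. Its 4h mean was 58.4 CPM. The kinase gene Plk2 fell from 52.2 to 24.8 CPM (log2 fold change -1.11, SE 0.13, adjusted p = 0.00024). Its means were 50.7 CPM at 0h and 21.5 CPM at 4h. The further members that fell were Btg2 (-1.14), Sesn2 (-0.81), Phlda3 (-0.72), Trp53inp1 (-0.71), Bbc3 (-0.67), Eda2r (-0.64), Plk3 (-0.52) and Ccng1 (-0.37). At 4h, Btg2, Phlda3 and Bbc3 had means of 17.3, 12.9 and 10.2 CPM, beside 16, 17.3 and 9.5 CPM in rev. Sesn2, Trp53inp1, Eda2r and Plk3 had 61.1, 145, 27.4 and 19.1 CPM at 4h, beside 40.8, 121, 18.3 and 13.8 CPM in rev. The calls of Phlda3, Bbc3, Eda2r, Plk3 and Ccng1 were each lost without any one of 4 to 6 libraries, with adjusted p of 0.051 to 0.195.

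**Figure D3:**
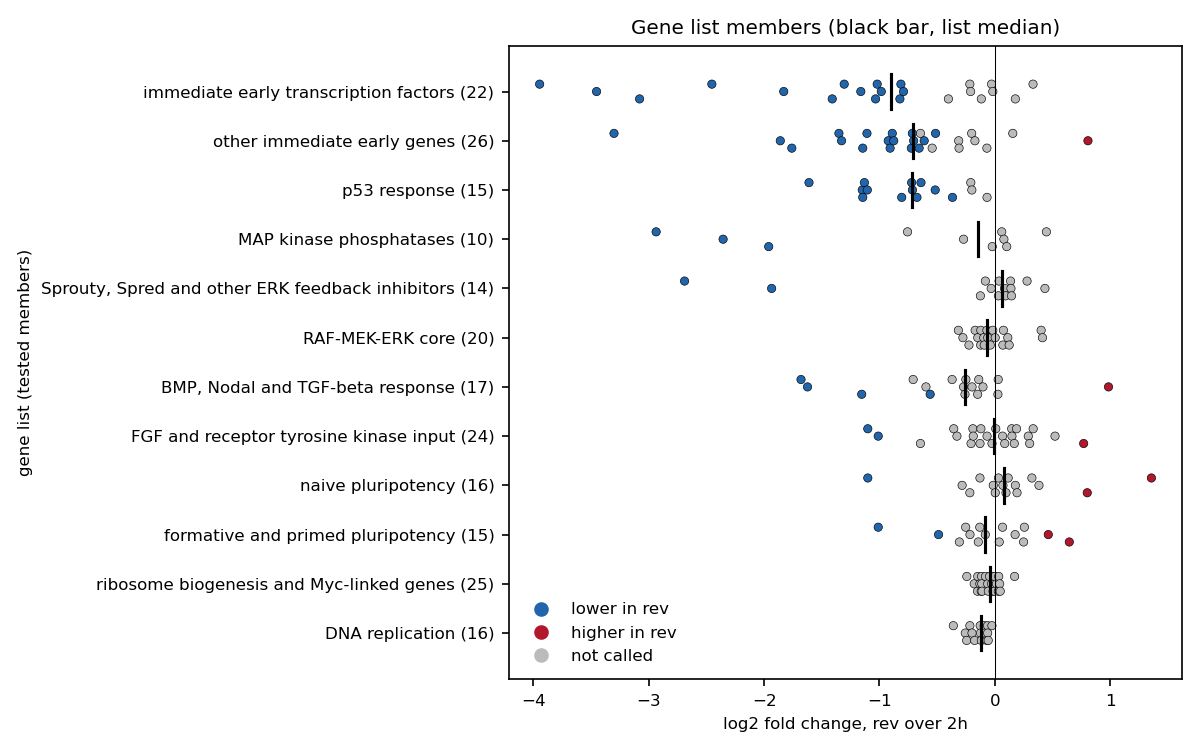
Log2 fold change of rev over 2h (horizontal axis) for the tested members of 12 gene lists (vertical axis, number of members in brackets); black bars are list medians, blue points were called lower, red higher, grey neither. The immediate early and p53 lists lie mostly to the left of 0, the phosphatases and Sprouty genes split into a few large falls and uncalled members, and the RAF-MEK-ERK, ribosome and DNA replication lists hold no call in the fit plotted.

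The BMP, Nodal and TGF-beta list, the FGF input list and the Wnt list each held calls in both directions. Of 17 tested members of the BMP, Nodal and TGF-beta response list, 4 were lower and 1 was higher, with a median of -0.26. The shares were 23.5% and 5.88%, beside 1.66% and 2.4% of all tested genes. Smad7, an inhibitor of TGF-beta and Activin receptors, had 65.3 and 57.3 CPM in clone 4 and 64.6 and 82.5 CPM in clone 8 at 2h. In rev, Smad7 had 18.7 and 18.9 CPM in clone 4 and 21.9 and 24.7 CPM in clone 8 (log2 fold change -1.68, SE 0.10, adjusted p = 2.57e-07). The groups did not overlap, and the means were 26.8 CPM at 0h and 50 CPM at 4h. Skil (SnoN, a SMAD corepressor) had 385 ± 40.1 CPM at 2h and 261 ± 11.9 CPM in rev (log2 fold change -0.56, SE 0.09, adjusted p = 0.00174). Its means were 206 CPM at 0h and 150 CPM at 4h. All 4h libraries, which had no MEK inhibitor, were below all rev libraries. Lefty1, a secreted Nodal inhibitor, had 275 ± 110.0 CPM at 2h and 124 ± 44 CPM in rev (log2 fold change -1.15, SE 0.17, adjusted p = 0.00163), and its 0h mean of 289 CPM was close to the 2h mean. Its 4h mean was 84.5 CPM, below the rev mean. Id3, an inhibitor of bHLH factors, was low throughout (1.12 to 4.44 CPM at 2h and 0.719 to 0.984 CPM in rev, log2 fold change -1.62, SE 0.34, adjusted p = 0.0132), and its call was lost without rev clone4_1 or rev clone4_2 (adjusted p 0.0634 to 0.0733). Bmp4 was the member that rose (0.517 to 1.4 CPM at 2h and 1.12 to 2.3 CPM in rev, log2 fold change 0.99, SE 0.26, adjusted p = 0.0494); its call was lost without any one of the 8 libraries, with adjusted p of 0.0697 to 0.168.

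Of 24 tested genes of FGF and receptor tyrosine kinase input, Fgf4 and Fgf15 were lower and Erbb2 was higher. The shares were 8.33% and 4.17%, beside 1.66% and 2.4% of all tested genes. Fgf4, the main FGF ligand of the early epiblast, had 89.9 and 99.8 CPM in clone 4 and 72.4 and 76.9 CPM in clone 8 at 2h. In rev, Fgf4 had 35.1 and 29.4 CPM in clone 4 and 48.4 and 46.7 CPM in clone 8 (log2 fold change -1.10, SE 0.15, adjusted p = 0.000649). Its groups did not overlap, and the 0h mean was 86.9 CPM, near the 2h mean. At 4h, Fgf4 was at 40.2 and 45.6 CPM in clone 4 and 94.7 and 91.5 CPM in clone 8. Fgf15 had 7.7 ± 1.41 CPM at 2h and 3.89 ± 1.19 CPM in rev (log2 fold change -1.01, SE 0.21, adjusted p = 0.012) and the receptor gene Erbb2 3.11 ± 0.355 CPM at 2h and 5.33 ± 0.794 CPM in rev (log2 fold change 0.77, SE 0.16, adjusted p = 0.0124). The call of Fgf15 was lost without any one of 4 libraries (2h clone4_2, rev clone4_1, rev clone4_2, rev clone8_2), and that of Erbb2 without 2h clone4_2 or rev clone8_2, with adjusted p of 0.0547 to 0.0685. Of the 10 tested Wnt response genes, 10% were called lower and 10% higher, beside 1.66% and 2.4% of all tested genes. In the Wnt response list (10 tested), the secreted inhibitor Dkk1 was lower (2.63 ± 0.546 CPM at 2h and 1.28 ± 0.388 CPM in rev, log2 fold change -1.03, SE 0.26, adjusted p = 0.0417) and the receptor gene Lgr5 was higher (0.753 ± 0.157 CPM at 2h and 2.61 ± 1.54 CPM in rev, log2 fold change 1.71, SE 0.31, adjusted p = 0.00561). Dkk1 was not called without any one of 5 libraries (2h clone4_2, 2h clone8_1, rev clone4_1, rev clone8_1, rev clone8_2; adjusted p 0.0745 to 0.177).

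Genes that rose by at least 2-fold had a median read count, not scaled by gene length, of 2.47 CPM over the 8 libraries, against 16.2 CPM for those that fell as much and 11 CPM for all tested genes. Meis1, a TALE homeodomain factor (chr11:18879817-19018985, minus strand, GRCm38), had 1.14 and 0.788 CPM in clone 4 and 0.775 and 0.537 CPM in clone 8 at 2h. In rev, Meis1 had 4.46 and 4.16 CPM in clone 4 and 2.67 and 2.67 CPM in clone 8. Its groups did not overlap (log2 fold change 2.12, SE 0.23, adjusted p = 9.77e-05). At 0h, Meis1 was at 0.11 CPM in clone 4 and 0.203 and 0 CPM in clone 8, and at 4h at 3.09 and 3.99 CPM in clone 4 and 0.227 and 0.38 CPM in clone 8. Kcna1, a voltage-gated potassium channel, had 5.81 and 4.29 CPM in clone 4 and 3.27 and 3.28 CPM in clone 8 at 2h. In rev, Kcna1 had 14 and 12.6 CPM in clone 4 and 11.8 and 10.3 CPM in clone 8 (log2 fold change 1.57, SE 0.15, adjusted p = 2.71e-05). Plat, the tissue plasminogen activator, had 3.42 and 2.54 CPM in clone 4 and 1.98 and 1.83 CPM in clone 8 at 2h. In rev, Plat had 8.43 and 9.85 CPM in clone 4 and 5.62 and 6.26 CPM in clone 8 (log2 fold change 1.64, SE 0.16, adjusted p = 4.28e-05). Kcna1 and Plat were at 0.159 and 0.429 CPM at 0h, so that their means were higher at 2h than at 0h and higher again in rev. At 4h their means were 7.13 and 4.73 CPM, below their rev means of 12.2 and 7.54 CPM. Irx5, an Iroquois homeodomain factor, had 1.25 and 1.84 CPM in clone 4 and 1.72 and 2.47 CPM in clone 8 at 2h. In rev, Irx5 had 4.53 and 5.89 CPM in clone 4 and 5.48 and 5.75 CPM in clone 8 (log2 fold change 1.52, SE 0.20, adjusted p = 0.000466). Its 0h mean was 3.1 CPM, and its 4h mean of 5.27 CPM was close to the rev mean of 5.41 CPM.

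The other genes named by the rule for rises were AU015836 (log2 fold change 2.10), the cadherin Cdh7 (1.97), the platelet-activating factor acetylhydrolase Pla2g7 (1.94), the haematopoietic bHLH factor Tal1 (1.89), the somatostatin receptor Sstr3 (1.85), Car11 (1.84), the zinc finger factor Casz1 (1.64), the repulsive guidance molecule Rgma (1.60), the lipoprotein lipase inhibitor Angptl4 (1.59), Slco5a1 (1.58) and Tnfrsf8 (CD30, 1.53). In rev their means ran from 3.25 to 7.02 CPM and at 2h from 0.84 to 2.35 CPM, with adjusted p of 3.77e-05 to 0.00482. At 4h, with no MEK inhibitor, AU015836, Pla2g7, Casz1, Angptl4 and Rgma had means of 9.97, 8.85, 7.52, 5.52 and 3.88 CPM. Their rev means were lower, at 5.57, 5.65, 5.42, 4.08 and 3.37 CPM. For AU015836 and Pla2g7, the clone 8 libraries were lower at 4h than in rev. Cdh7, Tal1, Sstr3, Car11, Slco5a1 and Tnfrsf8 had 0.249, 1.32, 0.68, 3.01, 6.09 and 2.83 CPM at 4h, each below its rev mean. At 0h, Tal1, Rgma, Angptl4, Casz1 and Slco5a1 had means of 1.61, 2.68, 3.39, 2.25 and 2.54 CPM. Their 2h means were lower, at 0.895, 1.06, 1.38, 1.67 and 2.35 CPM. AU015836, Cdh7, Pla2g7, Sstr3, Car11 and Tnfrsf8 had 0.459, 0.518, 0.163, 0.14, 0.967 and 1.12 CPM at 0h, each below its 2h mean. All 15 named rises stayed called in each alternative that tested them. The rule required a mean of at least 2 CPM, which left out Ccn4, a secreted CCN family protein and known Wnt target; it is named here because its fold change was the highest of all calls. Ccn4 had 0.228 and 0.175 CPM in clone 4 and 0.431 and 0.161 CPM in clone 8 at 2h. In rev, Ccn4 had 3.83 and 4.67 CPM in clone 4 and 1.97 and 2.67 CPM in clone 8 (log2 fold change 3.65, SE 0.35, adjusted p = 2.71e-05). Its 2h libraries held only a few counts each, near the 3-count floor. At 0h, Ccn4 was at 0.22 CPM in clone 4 and 0 and 0 CPM in clone 8, and at 4h at 5.56 and 6.73 CPM in clone 4 and 2.04 and 1.52 CPM in clone 8.

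**Figure D4:**
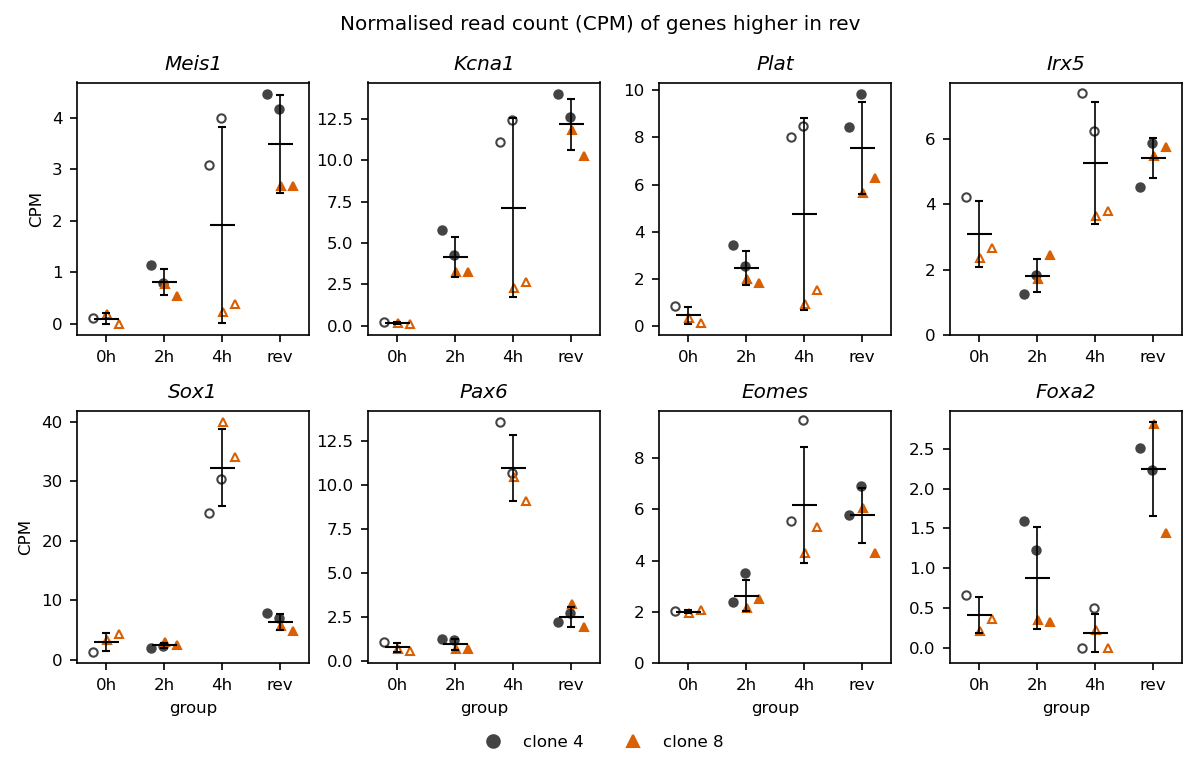
CPM per library (vertical axes, linear) in the 4 groups (horizontal axes) for 8 genes called higher in rev than at 2h; circles are clone 4, triangles clone 8, open symbols the reference groups, and the bar with whiskers the mean ± SD (n = 4, 3 at 0h). Meis1, Kcna1, Plat, Irx5, Sox1, Pax6 and Eomes do not overlap between 2h and rev, whereas Foxa2 does; Sox1, Pax6 and Eomes have their highest means at 4h.

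Markers of germ layers were low in both groups and several rose. Both called members of the neuroectoderm list (5 tested) were higher (40%, beside 2.4% of all tested genes). Sox1, a neural SoxB1 factor, had 1.94 and 2.37 CPM in clone 4 and 3.01 and 2.47 CPM in clone 8 at 2h. In rev, Sox1 had 7.81 and 7.01 CPM in clone 4 and 5.76 and 4.93 CPM in clone 8 (log2 fold change 1.36, SE 0.19, adjusted p = 0.000901). Pax6, the neural and eye paired-box factor, had 1.25 and 1.23 CPM in clone 4 and 0.689 and 0.698 CPM in clone 8 at 2h. In rev, Pax6 had 2.23 and 2.74 CPM in clone 4 and 3.23 and 1.95 CPM in clone 8 (log2 fold change 1.39, SE 0.28, adjusted p = 0.00965). Neither overlapped between the groups. At 0h, Sox1 was at 1.32 CPM in clone 4 and 3.38 and 4.26 CPM in clone 8, and at 4h at 24.7 and 30.4 CPM in clone 4 and 40.0 and 34.2 CPM in clone 8. At 0h, Pax6 was at 1.1 CPM in clone 4 and 0.676 and 0.609 CPM in clone 8, and at 4h at 13.6 and 10.7 CPM in clone 4 and 10.4 and 9.11 CPM in clone 8. The 4h libraries are shallow. The 3 neuroectoderm markers summed to 3.60 to 4.67 CPM at 2h and 7.29 to 10.9 CPM in rev, 2 of the 3 being these called genes. In the mesendoderm list (9 tested), the T-box factor Eomes was higher (2.15 to 3.5 CPM at 2h and 4.31 to 6.91 CPM in rev, log2 fold change 1.09, SE 0.18, adjusted p = 0.00328; means of 2.02 CPM at 0h and 6.17 CPM at 4h), as was the endoderm and midline factor Foxa2 (0.322 to 1.6 CPM at 2h and 1.44 to 2.81 CPM in rev, log2 fold change 1.45, SE 0.36, adjusted p = 0.0353), while Lefty1 was lower. Of this list, 22.2% were called higher and 11.1% lower, beside 2.4% and 1.66% of all tested genes. Foxa2 was not called when any one of 6 libraries, 2h clone8_2 among them, was left out (adjusted p 0.0564 to 0.0926).

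The 4 mesendoderm markers, which include the called Eomes and Foxa2, summed to 3.27 to 5.78 CPM at 2h and 6.26 to 10.8 CPM in rev. Of the others, T had 0 to 0.322 CPM at 2h and 0.103 to 0.305 CPM in rev. Mixl1 had 0.591 to 1.03 CPM at 2h and 0.411 to 1.32 CPM in rev. The endoderm markers summed to 1.90 to 2.79 and 2.95 to 3.76 CPM with no call, and the trophoblast markers to 1.38 to 4.03 and 2.53 to 3.55 CPM with Elf5 at or under the floor in all 8 libraries. In the trophoblast list (3 tested), Gata2, a zinc finger factor, was higher (2.56 ± 1.3 CPM at 2h and 6.51 ± 3.22 CPM in rev, log2 fold change 1.28, SE 0.21, adjusted p = 0.00258). That is 33.3% of the tested members, beside 2.4% of all tested genes. The fibroblast markers summed to 3.19 to 9.0 CPM at 2h and 6.16 to 15.3 CPM in rev, with Lum at 0 in all 8 libraries. Among the markers in this sum, Col1a1, a chain of type I collagen, was called higher (2.16 ± 1.56 CPM at 2h and 5.97 ± 3.43 CPM in rev, log2 fold change 1.52, SE 0.27, adjusted p = 0.00463). Thy1 was not called, with 4.22 and 4.56 CPM in clone 4 and 2.07 and 1.99 CPM in clone 8 at 2h. In rev, Thy1 had 4.11 and 3.25 CPM in clone 4 and 2.95 and 2.67 CPM in clone 8. Col1a2 was too low to be tested, with 0 to 0.376 CPM at 2h and 0.205 to 0.609 CPM in rev. The part of other cell types in these rises was not tested.

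Of the pluripotency lists, 3 of 16 naive, 4 of 15 formative and primed and 1 of 10 general genes were called, beside 4.06% of all tested genes. Of 16 tested naive genes, Fgf4 was lower and Nr5a2 and Tbx3 were higher, with a median of 0.08; neither rise was called when 2h clone8_2 was left out, and those of Tbx3 (0.80) and Nr5a2 (1.36) were lost without any one of 7 and 3 libraries, at adjusted p of 0.0556 to 0.178. Of the 10 general pluripotency genes, Foxd3, a forkhead factor of the epiblast, was lower (10.1 ± 4.41 CPM at 2h and 4.34 ± 1.45 CPM in rev, log2 fold change -1.15, SE 0.22, adjusted p = 0.00771), and its call was lost without rev clone8_2 (adjusted p = 0.0502). Of the 15 formative and primed genes, Fgf15 and the zinc finger factor Zic2 were lower and the N-cadherin gene Cdh2 and Sall2 were higher. Zic2 had 96.4 ± 22.3 CPM at 2h and 67.9 ± 9.11 CPM in rev (log2 fold change -0.49, SE 0.08, adjusted p = 0.00384) and Sall2 29.8 ± 8.9 CPM at 2h and 41.2 ± 13.1 CPM in rev (log2 fold change 0.46, SE 0.08, adjusted p = 0.00507). Cdh2 (0.65) was not called without any one of 7 libraries, 2h clone8_2 included (adjusted p 0.0567 to 0.123).

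Metabolic, stress, cell cycle and other lists held 0 to 3 calls each, beside 4.06% of all tested genes. None of the 25 tested ribosome biogenesis and Myc-linked genes and none of the 16 DNA replication genes was called, with medians of -0.05 and -0.12, and the endoderm list had none of 2. With no filter beyond 1 count and without 2h clone8_1, 1 DNA replication gene was lower. Of the 16 mitosis genes, the kinase Aurka was lower (-0.42). In the cholesterol list (2 of 18 called), Insig1, which holds back SREBP processing, was lower (127 ± 60.3 CPM at 2h and 75.2 ± 36.6 CPM in rev, log2 fold change -0.76, SE 0.09, adjusted p = 0.00020). In the stress response list (2 of 18 called), Sesn2 and Ddit3 (CHOP, -1.0) were lower. Of 23 FOXO-linked genes, Tob1 (-0.75) and Foxo3 (-0.40) were lower and Txnip, an inhibitor of glucose uptake, was higher (0.63). The SRF-actin list (17 tested) held Ccn2 alone, the circadian list (15) a lower Tef (-0.44) and a higher Bhlhe41 (1.09), and the oestrogen receptor list (9) a higher Nrip1 (0.58). Aurka, Ddit3, Foxo3, Nrip1 and Tef lost their calls when single libraries were left out, at adjusted p of 0.0544 to 0.144 in 3 to 7 libraries each.

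Genes that fell by at least 2-fold were short. The 46 protein-coding genes among them had a median gene span of 4.93 kb (quartiles 3.41 and 12.6 kb), against 25.2 kb (10.9 and 58.5 kb) for all tested protein-coding genes. Genes lower by less than 2-fold had a median of 21.9 kb, and genes higher by at least 2-fold and by less had 28.7 and 39.4 kb. Of the 63 genes that fell by at least 2-fold, 17 were not protein-coding (73.0% were), against 92.4% protein-coding among all tested and 93.7% among the 126 that rose as much. B930086L07Rik, an uncharacterised gene of the annotation class TEC, was the 1 entry of this kind to be named by rule (8.17 ± 2.16 CPM at 2h and 2.27 ± 0.696 CPM in rev, log2 fold change -1.84, SE 0.24, adjusted p = 0.000408). Sertad1, a cyclin-dependent kinase regulator, closed the 15 named falls (23.4 ± 9.95 CPM at 2h and 7.83 ± 2.59 CPM in rev, log2 fold change -1.55, SE 0.20, adjusted p = 0.000443). Among the falls named by rule, Junb, Zfp36, Dusp1, Csrnp1 and Cdkn1a overlap another annotated gene, as do Meis1, Pla2g7, Casz1 and Rgma among the rises and Nab2, Dusp5 and Rrad among the uncalled genes. The antisense gene opposite Csrnp1, 1700019L13Rik, was itself called lower, and with strand unknown the counts of such pairs cannot be told apart.

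The change had the same sign in both clones for all 507 called genes, which the additive model favours, and no gene was called for a difference between the clones in that change (0 of 12479, 0%; 368 at an unadjusted p under 0.05, 2.95%). DESeq2 called 3 genes for that difference. Fos had a log2 fold change of -4.32 in clone 4 and -3.40 in clone 8, Egr1 of -3.08 and -3.08, and Dusp6 of -3.00 and -2.86. Smad7 fell by 1.70 and 1.66 on that scale. Gaps were wider for Dusp1 (-2.95 and -1.65), Fgf4 (-1.55 and -0.65), Cdkn1a (-2.10 and -1.11) and Zfp36 (-3.78 and -2.64). With 2 libraries per clone in each group, the lack of calls does not show that the change was alike in both clones. The falls were present in both clones, from levels at 2h that differed between them for Fos, Junb and Egr1.

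**Figure D5:**
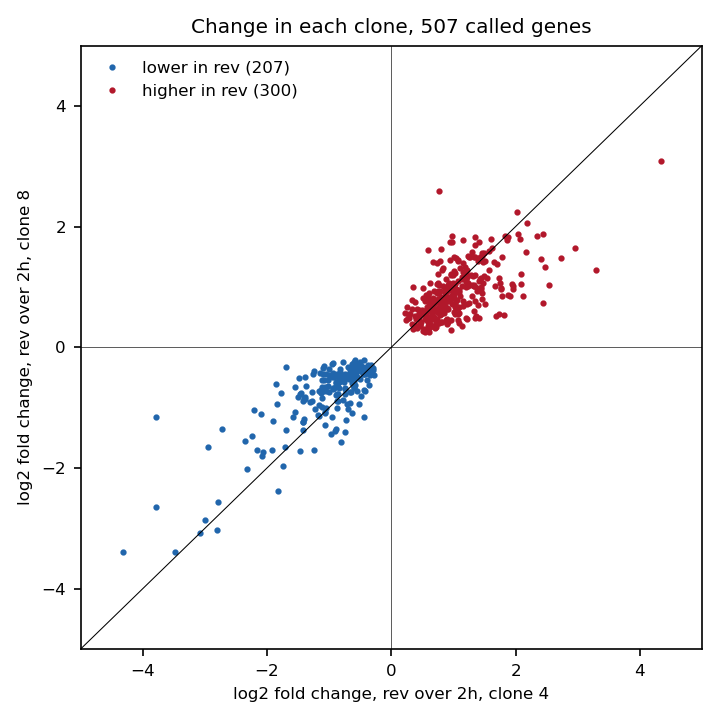
Log2 fold change of rev over 2h in clone 8 (vertical axis) against clone 4 (horizontal axis) for the 507 called genes; blue, lower in rev; red, higher; the diagonal marks equal change. All points lie at the lower left or upper right, and Fos, the lowest in clone 4, has -4.32 in clone 4 and -3.40 in clone 8.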

How the data were processed

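RNA-seq of 15 samples of mouse EpiLCs was deposited as 1 table of raw counts per gene, with 52636 Ensembl identifiers; the authors state no normalization of these counts. The submitters' processing notes name bcl2fastq 2.19.1, STAR 2.5.3a and the build mm10; the counting tool, annotation and handling of strand are not given in the sources used here. Names came from GENCODE M21 for 52489 identifiers. In R 4.3.3 and edgeR 4.0.16, the 8 libraries of 2h and rev (8667880 to 12752651 counts) were filtered with filterByExpr (minimum count 10, minimum total 15), scaled by TMM over all 15 libraries and fitted with group and clone. Genes were called at a Benjamini-Hochberg adjusted p under 0.05 in the two-sided robust quasi-likelihood test, and SE is the log2 fold change divided by the square root of F. No count was seen for 21819 identifiers in the 8 libraries. The members and lists were chosen with earlier results of these data known. The genes named are the 15 lowest and 15 highest called fold changes among genes with a mean of at least 2 CPM and non-overlapping libraries, and the called members of 28 lists; uncalled genes and Ccn4 were added after their values were seen. Some members are not reported here. Log2 ratios of 2 genes used CPM plus 0.5. Scripts were tested on simulated data. Alternatives were other scalings, filters, models and DESeq2 1.42.0, and leaving out each library. Whether the replicate number pairs libraries within a clone could not be decided. The deviations correlated at 0.32 between the groups in clone 4 and at -0.25 in clone 8, with only 2 libraries per clone in each group.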

Additional observations from a re-analysis of the deposited data

Results flagged for a closer look

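A gap between one library and the rest was looked for in the 64 groups of 4 libraries formed by the named genes, and Dixon's ratio passed its 95% critical value in 2 of them; chance gives about 1 in 20. In the 2h group, Cdh7 was at 0.537 CPM in one library, with the nearest of the others at 0.912 CPM (ratio 0.878), and Sstr3 was at 0.806 CPM in one library, with the nearest at 1.23 CPM (ratio 0.865). In both genes the far library was the lowest of its group and the rev libraries were all higher.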

How the results depend on the processing

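The 507 calls became 133 with total count scaling (70 lower, 63 higher), 794 with no filter beyond 1 count (325 and 469), 128 with no clone term (49 and 79) and 236 at an adjusted p under 0.01. Leaving out single libraries gave 284 to 628 calls, 109 to 246 lower and 167 to 382 higher. The lowest counts came without 2h clone4_2 (310), rev clone4_1 (297), rev clone4_2 (284) or rev clone8_2 (297); without rev clone8_1 the lower calls were 132. The 189 changes of at least 2-fold became 123 with total count scaling, 307 with no filter, 99 at a minimum count of 30 and 83 with no clone term. Their lower part became 37 at a minimum count of 30 and 28 with no clone term, and their higher part 62 with total count scaling, 219 with no filter, 62 at a minimum count of 30 and 55 with no clone term. The clone difference, with no call in the main analysis, gave 2 with total count scaling, 11 with no filter, 3 with DESeq2 and 0 to 1 without single libraries. The cause of these shifts was not tested, except that no filter and a higher minimum change the number of genes tested (30817 and 9797). In the replicate block fit (clone and number) 572 genes were called, 228 lower and 344 higher; DESeq2 called 442. Of 101 called genes taken by the naming rule, from the lists or as Ccn4, 37 kept the call in every alternative, 41 lost it in 1 to 3 and 23 in 4 or more, and none changed direction; 57 lost it with no clone term and 37 with total count scaling, which moved the median of all genes to -0.13. The uncalled Dusp5 turned from 0.060 to -0.061 with total count scaling, and lay between -0.00923 and 0.134 without single libraries, below 0 without rev clone4_2 or rev clone8_1 (-0.00675). Depth limits genes near the floor of 0.161 to 0.422 CPM, and 3 counts cover counting error only.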
